A study of Mus musculus with 16 samples.

Results

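The 10 genes described here are the G1 cyclins Ccnd1, Ccnd2, Ccnd3, Ccne1 and Ccne2 and the genes that hold cells in G1, namely the kinase inhibitors Cdkn1b, Cdkn2b, Cdkn2c and Cdkn2d and the pocket protein gene Rb1. They were chosen by symbol, and all 10 were found among the 26219 genes measured. Expression was read by 3′ RNA sequencing in 16 libraries of mouse primordial germ cells, which later give rise to eggs and sperm. The series concerns PRDM1, a transcriptional repressor of the germ line. All floxed cells came from E11.5 (embryonic day) embryos of the C57BL/6 strain that were Prdm1 flox/flox and Rosa26 neo-EYFP/+ and whose mothers received 3 mg 4-OHT per 25 g body weight at E10.5. The 4 libraries labelled CKO (conditional knockout) also carried the Dppa3-MCMP Tg/0 transgene, the germ-cell-expressed inducible Cre of the design, and the 4 control libraries lacked it. The 8 wild-type libraries were Dppa3(EGFP/+) cells on a mixed ICR and C57BL/6 background, with 2 libraries each at E10.5, E11.5, E13.5 male and E13.5 female. Cells were sorted on EYFP or with an antibody to SSEA-1, and the protocols tie neither sort to a group. If the sorts differed between CKO-labelled and control cells, that difference cannot be told apart from the deletion. Nothing in the labels says that replicates came from separate litters, and p-values here reflect only library-to-library spread, which may be technical.

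D-type cyclins bind CDK4 and CDK6, and E-type cyclins bind CDK2. The active kinases phosphorylate RB1, which then releases E2F factors that switch on genes of S phase. The INK4 inhibitors, encoded by Cdkn2b (p15), Cdkn2c (p18) and Cdkn2d (p19), bind CDK4 and CDK6, and Cdkn1b encodes p27, which inhibits cyclin-CDK2 complexes. In the fetal gonad male germ cells arrest in G1 after sex determination, while female germ cells leave the mitotic cycle by entering meiosis, and E13.5 lies near the start of both events.

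Values are RPM, reads scaled per 1e6 reads assigned to genes, and were not divided by gene length, so levels are compared between samples and not between genes. Depth, read from the steps between low values, was 2797000 to 5032000 reads in the floxed libraries and 1485000 to 4783000 in the wild-type libraries. A floor of 3 reads lay at 0.596 to 1.07 RPM in the former and 0.627 to 2.02 RPM in the latter. Such floors leave out PCR duplication, because amplified copies are not separate molecules, and so cover counting error only. The summed level of 9 germ cell markers was between 3155 and 9193 RPM in every library. Prdm1 itself was 50.7 to 73.0 RPM in the control and 76.6 to 89.4 RPM in the CKO-labelled libraries, and a 3′ tag need not lie in the deleted part, so it checks neither the deletion nor the labels. As markers of gonadal somatic and mesenchymal cells 12 genes were summed, at 12.9, 73.4, 20.8 and 31.1 RPM in controls 1 to 4 and 104.7, 19.7, 9.76 and 261.3 RPM in CKO-labelled libraries 1 to 4. The sums were 60.5 and 65.3 RPM in E10.5 cells, 6.06 and 7.12 RPM in E11.5 cells, 15.4 and 16.2 RPM in E13.5 males and 5.23 and 4.66 RPM in E13.5 females. Tests used limma on log2(RPM + 1) over all genes past a low-expression filter, and a gene was called at an adjusted p under 0.05. Fold changes are on that scale and understate the change of genes with low values.

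Promoter windows, 250 bases before to 50 bases after a start, were matched for 6 of the 10 genes and gave 8 windows (RefSeq, GRCm38.p6). Ccne1, Ccnd3 and Cdkn2d are shown because the first 2 fell and the last rose in E13.5 female cells. Capitals mark each GC box, GGGCGG or its reverse complement.
Ccne1, chr7:38107441-38107740, minus strand: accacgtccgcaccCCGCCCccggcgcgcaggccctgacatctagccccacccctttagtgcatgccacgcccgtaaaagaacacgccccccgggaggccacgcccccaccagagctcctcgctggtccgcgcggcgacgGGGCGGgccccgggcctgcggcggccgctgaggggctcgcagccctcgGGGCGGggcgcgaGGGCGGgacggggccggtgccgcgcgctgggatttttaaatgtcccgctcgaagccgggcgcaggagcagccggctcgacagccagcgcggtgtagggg
Ccnd3, chr17:47593217-47593516, plus strand, the downstream of its 2 windows: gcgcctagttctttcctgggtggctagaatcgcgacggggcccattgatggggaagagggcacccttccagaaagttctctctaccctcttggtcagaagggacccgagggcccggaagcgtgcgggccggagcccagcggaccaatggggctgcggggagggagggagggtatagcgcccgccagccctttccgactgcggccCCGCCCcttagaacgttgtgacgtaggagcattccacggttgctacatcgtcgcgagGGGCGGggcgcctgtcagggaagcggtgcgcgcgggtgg
Cdkn2d, chr9:21291160-21291459, minus strand: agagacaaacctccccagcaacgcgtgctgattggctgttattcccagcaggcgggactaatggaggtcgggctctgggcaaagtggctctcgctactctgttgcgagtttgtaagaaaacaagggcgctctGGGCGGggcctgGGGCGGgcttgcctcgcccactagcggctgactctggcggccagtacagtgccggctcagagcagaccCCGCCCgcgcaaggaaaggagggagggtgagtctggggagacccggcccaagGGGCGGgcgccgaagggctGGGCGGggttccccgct
The Ccne1 window held 4 GC boxes, the Ccnd3 window held 2 and the Cdkn2d window held 5. At least 1 GC box lay in 7 of the 8 windows, against 35.7% of 32851 promoter windows of the same length. An E2F-type motif, TTTNNCGC on either strand, was found in 0 of the 8 windows and in 5.17% of all windows. These are matches of letters in a window and not sites of a factor. Genes that fell and a gene that rose shared GC boxes.

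**Figure D1:**
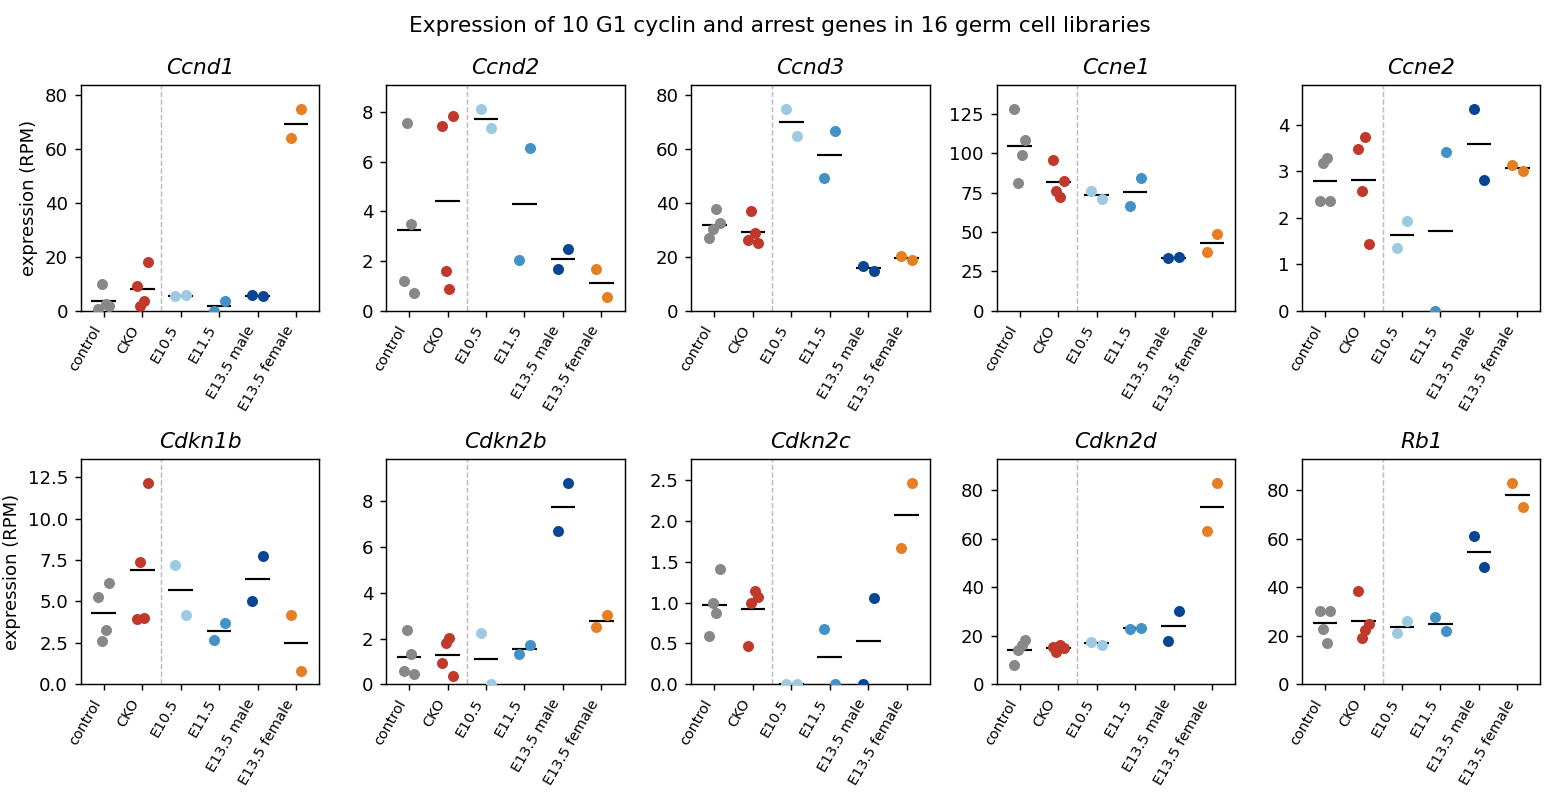
Expression in RPM (linear axes from 0) of the 10 genes in each library, with points for libraries and bars for group means, floxed groups left of the dashed line (n = 4 each) and wild-type groups right of it (n = 2 each). The 2 E13.5 female libraries stand above all others for Ccnd1, Cdkn2d and Rb1, and the 4 E13.5 libraries lie lowest for Ccnd3 and Ccne1.

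Among the wild-type cells, cyclin D1 transcripts were high in females at E13.5 and low elsewhere. Ccnd1, the cyclin most often induced by growth factor signals (chromosome 7, 144929931 to 144939831, minus strand), was 64.0 and 74.8 RPM in the E13.5 female libraries, or 306 and 273 reads. It was 5.68 and 5.28 RPM in E13.5 males, 5.42 and 5.76 RPM in E10.5 cells, and 0 and 3.42 RPM at E11.5. The female values overlapped with those of no other group, whereas the ranges of E13.5 males and E10.5 overlapped. The mean of 69.4 ± 7.68 RPM (SD, n = 2) in females compared with 5.48 ± 0.28 RPM (n = 2) in males, a log2 difference of 3.44 ± 0.46 (SE; limma adjusted p = 8.50e-07). Against E11.5 the female rise was 5.06 ± 0.46 (limma adjusted p = 5.90e-10). Both calls held in all 14 alternatives, over which the rise from E11.5 ranged from 2.77 to 6.87. Without E11.5 replicate 1, the library with 0 reads of Ccnd1, it was 3.99 (limma adjusted p = 1.03e-08). The gene Oraov1 overlaps the 3′ end of Ccnd1 on the other strand and was 7.94 and 11.2 RPM in the female libraries, where Ccnd1 was 666% to 805% of it.

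Ccnd1 was also called lower at E11.5 than at E10.5 (log2 -1.65 ± 0.46, limma adjusted p = 0.034) and higher in E13.5 males than at E11.5 (1.62 ± 0.46, limma adjusted p = 0.00575). Both calls rest on 12 reads over the 2 E11.5 libraries, of which replicate 1 had 0, a count that allows up to 2.02 RPM. Without that replicate the values were -0.58 (limma adjusted p = 0.40) and 0.55 (limma adjusted p = 0.25), and the calls were kept in 5 and 6 of 14 alternatives. The first was also lost without E10.5 replicate 1 or 2 (limma adjusted p = 0.21 and 0.19), and the second without male replicate 1 or 2 (limma adjusted p = 0.069 and 0.057). Markers of other cell types also fell from E10.5 to E11.5. The 12 somatic and mesenchymal markers summed to 60.5 and 65.3 RPM in E10.5 cells and 6.06 and 7.12 RPM in E11.5 cells, with 2 of 3 tested called lower, among them Col3a1 (log2 -4.12 ± 0.45, limma adjusted p = 4.83e-07). The erythroid markers summed to 224 and 213 RPM in E10.5 cells and 14.8 and 5.98 RPM in E11.5 cells, with 4 of 4 tested called lower. Of all genes 1.97% were called lower there. The part of such cells in the fall of Ccnd1 was not tested. Of the markers called lower, Col3a1 and Col1a1 averaged 0.76 and 1.19 RPM at E11.5, and the 4 erythroid genes 1.83 to 3.83 RPM. None of these markers would have passed the filter on the E11.5 libraries alone.

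Cyclin D3 transcripts fell between E11.5 and E13.5 in both sexes. Ccnd3, the D cyclin best known from lymphocyte growth (chromosome 17, 47505051 to 47599689, plus strand), was 74.9 and 65.0 RPM in E10.5 cells, then 49.2 and 66.9 RPM in E11.5 cells. It was 16.7 and 14.8 RPM in E13.5 males and 20.3 and 18.9 RPM in E13.5 females. All E13.5 values lay below all earlier ones, and the ranges at E10.5 and E11.5 overlapped. The fall from E11.5 was -1.80 ± 0.21 in males (limma adjusted p = 9.64e-08) and -1.50 ± 0.21 in females (limma adjusted p = 1.25e-06) on the log2 scale. The difference between the sexes was 0.30 ± 0.21 (limma adjusted p = 0.28).

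The last 359 bases of Ccnd3 are shared with Bysl, a ribosome biogenesis gene on the other strand, and nothing states whether the counting used strand. Bysl was 575 and 565 RPM in E10.5 cells, 571 and 583 RPM at E11.5, 186 and 182 RPM in E13.5 males and 197 and 189 RPM in E13.5 females. It fell from E11.5 by 1.64 ± 0.09 on the log2 scale in males (limma adjusted p = 4.74e-14) and by 1.58 ± 0.09 in females (limma adjusted p = 1.51e-13). Ccnd3 was 7.70% to 13.03% of Bysl in all 16 libraries. Reads of Bysl and of Ccnd3 cannot be told apart in the shared bases, and the part of Bysl in the Ccnd3 values was not tested.

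**Figure D2:**
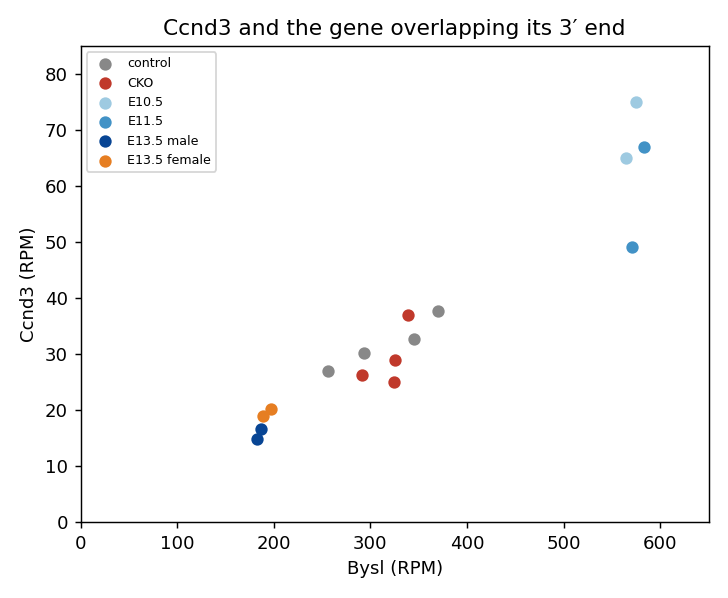
Ccnd3 against Bysl, the gene that overlaps its 3′ end, both in RPM on linear axes from 0, with 1 point per library in 16 libraries of 6 groups. Ccnd3 lies between 7.70% and 13.03% of Bysl throughout, and both genes are lowest in the 4 E13.5 libraries.

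Ccnd2 (chromosome 6, 127125162 to 127152188, minus strand), a D cyclin active in gonadal somatic cells, was low in every wild-type group. It was 8.13 and 7.36 RPM in E10.5 cells, 2.02 and 6.55 RPM at E11.5, 1.67 and 2.47 RPM in E13.5 males and 1.67 and 0.55 RPM in E13.5 females. Its order ran from E10.5 down to E13.5 females, with overlapping ranges between E11.5 and males and between males and females. The female value against E11.5 was called lower (log2 -1.23 ± 0.50, limma adjusted p = 0.042) and lost the call in 7 of 13 alternatives. One of these left out E11.5 replicate 2 and gave -0.57 (limma adjusted p = 0.42), and another left out female replicate 2 and gave -0.84 (limma adjusted p = 0.30).

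Cyclin E1 transcripts also fell in both sexes. Ccne1 (chromosome 7, 38097984 to 38107490, minus strand), which encodes the partner of CDK2 at S phase entry, was 75.8 and 70.8 RPM in E10.5 cells, then 66.7 and 84.6 RPM in E11.5 cells. It then stood at 33.4 and 33.8 RPM in E13.5 males and 37.2 and 48.8 RPM in E13.5 females. The fall from E11.5 was -1.14 ± 0.18 in males (limma adjusted p = 9.03e-06) and -0.80 ± 0.18 in females (limma adjusted p = 0.000439), and both were called in all 14 alternatives. Female values lay above male values, with a log2 difference of 0.33 ± 0.18 that was not called (limma adjusted p = 0.14). The other E cyclin, Ccne2 (chromosome 4, 11190433 to 11204779, plus strand), stayed at or below 4.34 RPM in all 16 libraries and was not tested. Its 3′ part lies within Ints8 on the other strand, which was 65.3 to 170 RPM in the wild-type libraries.

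Of the inhibitors, Cdkn2d was high in E13.5 females. Cdkn2d (chromosome 9, 21288459 to 21291421, minus strand) was 17.6 and 16.3 RPM in E10.5 cells, 22.9 and 23.3 RPM at E11.5, 17.7 and 30.3 RPM in E13.5 males, and 63.1 and 83.1 RPM in E13.5 females. The 2 female libraries lay above the 6 others, and the male range enclosed both E11.5 values. The female mean of 73.1 ± 14.1 RPM (SD, n = 2) compared with 24.0 ± 8.90 RPM (n = 2) in males, a log2 difference of 1.60 ± 0.24 (limma adjusted p = 5.83e-06). Against E11.5 the rise was 1.61 ± 0.24 (limma adjusted p = 3.46e-06), and both were called in all 14 alternatives.

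Cdkn2b, the INK4 gene induced by TGF-beta signals in many cell types, was highest in E13.5 males (chromosome 4, 89306289 to 89311032, minus strand). It was 6.68 and 8.80 RPM in males and 2.51 and 3.02 RPM in females, against 1.35 and 1.71 RPM at E11.5 and 2.26 and 0 RPM at E10.5. The male rise over E11.5 was 1.78 ± 0.53 on the log2 scale (limma adjusted p = 0.00866) and was called in 10 of 13 alternatives. It was not called without male replicate 2 (1.61, limma adjusted p = 0.084). Cdkn2b passed the filter only through the male libraries, and a fit with no filter did not call the male rise (limma adjusted p = 0.060). The difference of females from males was -1.21 ± 0.53 and did not pass (limma adjusted p = 0.073), although 4 of 13 alternatives called it. The gene lies within the noncoding RNA Gm12610 on the other strand.

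Cdkn2c (chromosome 4, 109660876 to 109666756, minus strand) was near the floor. It had 0 reads in both E10.5 libraries, 1 and 0 reads at E11.5, 0 and 3 reads in E13.5 males, and 8 and 9 reads in E13.5 females, or 1.67 and 2.47 RPM. It did not pass the filter, and a fit with no filter gave a limma adjusted p of 0.049 for females against E11.5 and 0.096 for females against males.

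Cdkn1b (chromosome 6, 134920401 to 134925525, plus strand), the p27 gene, was low throughout. It was 7.22 and 4.16 RPM in E10.5 cells, 2.69 and 3.70 RPM at E11.5, 5.01 and 7.75 RPM in E13.5 males and 4.18 and 0.82 RPM in E13.5 females. Females were called lower than males (log2 -1.24 ± 0.49, limma adjusted p = 0.046), in 7 of 13 alternatives. Only E10.5 replicate 1 and the 2 male libraries reached 5 RPM, so without the males the gene would not have been tested. Without female replicate 2 the difference was -0.48 (limma adjusted p = 0.58), without male replicate 2 it was -0.97 (limma adjusted p = 0.27), and without male replicate 1 it was -1.51 (limma adjusted p = 0.077). The male change from E11.5 was 0.80 ± 0.49 and was not called (limma adjusted p = 0.20).

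Rb1 transcripts rose in both sexes. Rb1 (chromosome 14, 73192858 to 73325951, minus strand) was 21.2 and 26.3 RPM in E10.5 cells, 27.6 and 21.9 RPM at E11.5, 61.1 and 48.2 RPM in E13.5 males, and 83.0 and 73.2 RPM in E13.5 females. All E13.5 values lay above all earlier ones. The rise over E11.5 was 1.11 ± 0.20 in males (limma adjusted p = 6.46e-05) and 1.62 ± 0.20 in females (limma adjusted p = 1.52e-07), called in all 14 alternatives. Females were called above males by 0.51 ± 0.20 (limma adjusted p = 0.043), a call kept in 6 of 14 alternatives. It was lost with median-ratio and with quantile scaling (limma adjusted p = 0.057 and 0.054), and without male replicate 2 the difference was 0.35 (limma adjusted p = 0.32). Leaving out female replicate 1 or 2 also ended it (limma adjusted p = 0.26 and 0.098). Lpar6, which lies within Rb1 on the other strand, was 0.55 to 10.8 RPM in the wild-type libraries.

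**Figure D3:**
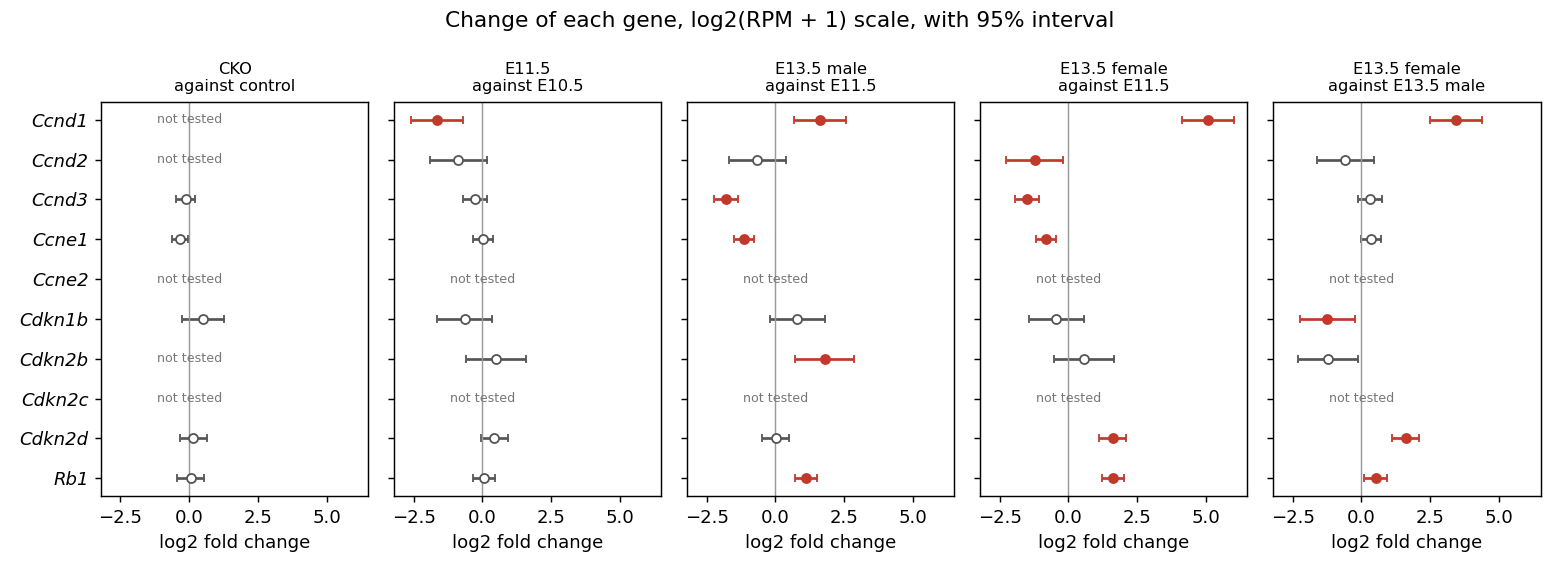
Log2 fold change of each gene on the log2(RPM + 1) scale in 5 comparisons, with 95% intervals from limma, filled where the adjusted p is under 0.05 and open where it is not. Genes below the filter are marked as not tested, and Ccnd1 in females has the highest value, 5.06 against E11.5.

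Counted over the wild-type comparisons, 8 of the 10 genes passed the filter, all but Ccne2 and Cdkn2c. Between E10.5 and E11.5, 1 of the 8 was called, lower, against 4.28% of all 10749 genes tested (2.31% higher and 1.97% lower). From E11.5 to E13.5 in males 3 rose and 2 fell, 5 of 8 called against 38.2% of all genes (22.3% higher and 15.9% lower). Of the 3 that rose, Cdkn2b was among the genes tested only through its levels in the male libraries. In females 3 rose and 3 fell, 6 of 8 against 51.2% (31.2% higher and 20% lower). Between the sexes at E13.5 4 of 8 differed, 3 higher and 1 lower in females, against 37.6% (21.2% higher and 16.4% lower). The 1 lower, Cdkn1b, would not have been tested without its levels in the male libraries. These comparisons share libraries. The median of all genes tested was 0.11 in males and 0.13 in females against E11.5, so relative to it Ccnd3 fell by 1.91 and 1.63 and Rb1 rose by 1.00 and 1.49. Quantile scaling shifted the female median by -0.14 and median-ratio scaling by -0.11. The calls in females were 3354 higher and 2148 lower, and 2732 and 2732 with quantile scaling. Between E10.5 and E11.5 the split was 248 higher and 212 lower, and 212 and 280 with median-ratio scaling. In bulk samples, fewer cells of a type and less RNA per cell cannot be told apart.

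Markers of other cell types also differed between the sexes at E13.5. The 5 pre-granulosa markers summed to 12.1 and 15.6 RPM in females and 1.34 and 2.47 RPM in males. Of these, Irx3, Bmp2 and Wnt4 made up most of the female sum, and Foxl2, the defining one, was 0 and 0.55 RPM. The 5 Sertoli markers summed to 22.0 and 8.45 RPM in males and 1.25 and 1.92 RPM in females, with Amh at 0 in all 4 libraries. The erythroid markers summed to 22.8 and 32.6 RPM in females and 2.67 and 3.52 RPM in males, and 3 of 4 tested were called higher in females. The endothelial markers summed to 115 and 123 RPM in females and 60.1 and 58.5 RPM in males, with 1 of 3 tested called higher. In females 4 and 2 of the 6 markers were at 0, and 1 and 4 in males. At E11.5, where the sums were 121 and 118 RPM, Pecam1 alone averaged 108 RPM, so the sum there was mostly 1 gene. Of all genes 21.2% were called higher and 16.4% lower in females. The part of such cells in the differences between the sexes was not tested.

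In the floxed cells the transcripts of these genes were not called different between CKO-labelled and control libraries. Of the 10 genes 5 passed the filter (Ccnd3, Ccne1, Cdkn1b, Cdkn2d and Rb1), and 0 of the 5 were called, with 0 called in any of the 18 alternatives, against 2.43% of 9384 genes (1.93% higher and 0.501% lower). Ccne1 had the lowest p. It was 128, 81.4, 99.2 and 109 RPM in controls 1 to 4 and 95.9, 76.1, 72.3 and 82.6 RPM in CKO-labelled libraries 1 to 4, so that the ranges overlapped. The means were 104 ± 19.4 RPM and 81.7 ± 10.4 RPM (SD, n = 4), a log2 change of -0.34 ± 0.14 (limma adjusted p = 0.34, unadjusted p = 0.0321). At an unadjusted limma p under 0.05 1 of the 5 genes passed, Ccne1, and limma voom called 0.

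Rb1 was 30.3, 22.7, 17.1 and 30.4 RPM in controls and 38.5, 19.3, 22.4 and 24.7 RPM in CKO-labelled libraries, a log2 change of 0.05 with a 95% interval from -0.45 to 0.54. Cdkn2d was 7.95, 14.1, 16.2 and 18.1 RPM in controls and 15.6, 13.51, 16.4 and 15.0 RPM in CKO-labelled libraries, with an interval from -0.35 to 0.64. Ccnd3 was 27.1, 30.2, 37.7 and 32.7 RPM against 26.2, 37.0, 29.0 and 25.0 RPM, with an interval from -0.47 to 0.22. The groups overlapped for all 3 genes. Cdkn1b was 5.30, 2.59, 3.28 and 6.12 RPM against 3.95, 7.35, 4.02 and 12.2 RPM, a change of 0.50 ± 0.35 (limma adjusted p = 0.65).

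The other 5 genes were below the filter in the floxed cells. Ccne2 ranged from 1.43 to 3.73 RPM, Cdkn2b from 0.357 to 2.39 RPM and Cdkn2c from 0.464 to 1.41 RPM over the 8 libraries. Ccnd1 was 0.589, 9.95, 2.41 and 1.88 RPM in controls and 9.29, 1.59, 3.73 and 17.9 RPM in CKO-labelled libraries. Ccnd2 was 1.18, 7.56, 3.50 and 0.707 RPM in controls and 7.43, 1.59, 0.861 and 7.86 RPM in CKO-labelled libraries. For both D cyclins the 3 highest libraries were control 2 and CKO-labelled 1 and 4, which were also the 3 libraries with the highest somatic marker sums, and the part of somatic RNA in these levels was not tested. The 2 E13.5 female libraries had the highest Ccnd1 of all 16 and the lowest sums of these 12 markers, which leave out pre-granulosa and endothelial genes. Pre-granulosa sums were 12.1 and 15.6 RPM in E13.5 females and 1.34 and 2.47 RPM in males. Endothelial sums were 115 and 123 RPM against 60.1 and 58.5 RPM. At E11.5 such sums were mostly Pecam1 (mean 108 RPM, of 121 and 118 RPM). The part of such cells in the female Ccnd1 level was not tested.

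**Figure D4:**
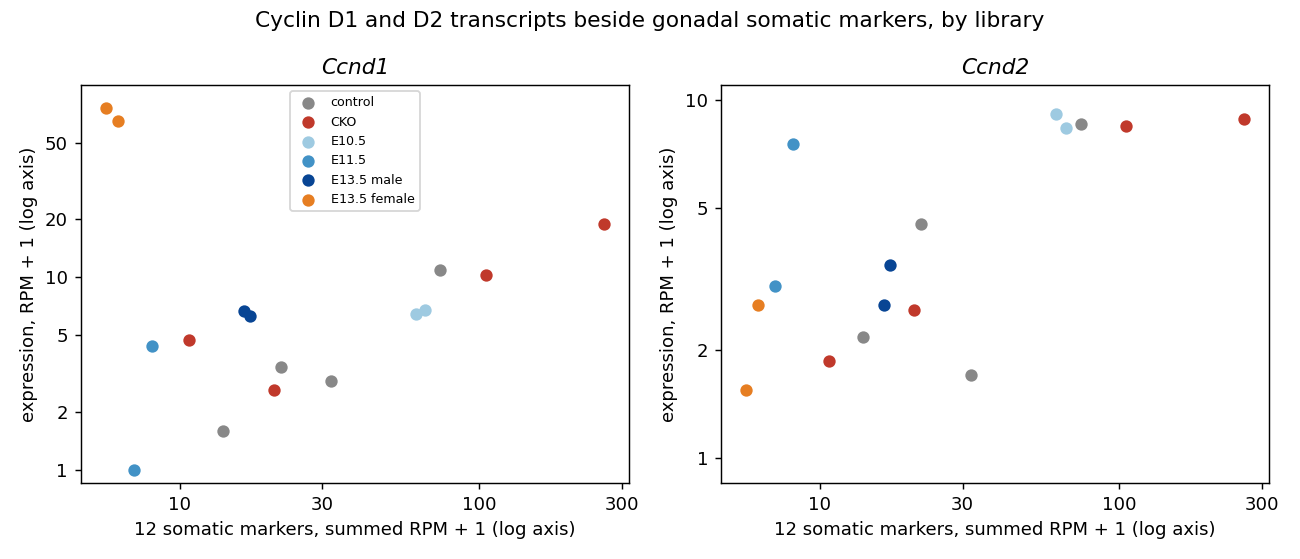
Ccnd1 (left) and Ccnd2 (right) against the 12 somatic and mesenchymal markers summed, as RPM + 1 on log axes, with 1 point per library. In the 8 floxed libraries the 3 highest somatic sums (73.4, 104.7 and 261.3 RPM) go with the 3 highest values of both cyclins. The 2 E13.5 female libraries have sums of 5.23 and 4.66 RPM and Ccnd1 at 64.0 and 74.8 RPM. The sums leave out pre-granulosa and endothelial markers.

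The kinases that these cyclins drive were followed in a list of 13 G1 kinases and regulators. In the CKO-labelled cells 2 of 12 tested rose and 0 fell, beside 1.93% of all genes higher and 0.501% lower. Cdk2, the partner of E cyclins, was 10.6, 17.9, 10.1 and 13.7 RPM in controls and 29.7, 39.7, 36.2 and 27.9 RPM in CKO-labelled libraries, without overlap. Its log2 change was 1.31 ± 0.20 (limma adjusted p = 0.00209), called in all 18 alternatives. Cdk6, a partner of D cyclins, was 5.89, 12.7, 5.47 and 4.48 RPM against 22.1, 18.1, 21.8 and 14.3 RPM, a change of 1.38 ± 0.27 (limma adjusted p = 0.0149). Control 4 lay under the filter's 5 RPM, so Cdk6 would not have been tested on the control libraries alone. The Cdk6 call was lost in 5 of 17 alternatives, among them leaving out control 3 (limma adjusted p = 0.055) or CKO-labelled 1, 2 or 3 (limma adjusted p = 0.066, 0.050 and 0.055).

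At E13.5 the same kinase list rose for 5 and fell for 2 of 12 tested in each sex, against E11.5. Of all genes 38.2% were called in males (22.3% higher and 15.9% lower) and 51.2% in females (31.2% higher and 20% lower). In males Cdk6 went from 7.11 ± 2.43 to 30.2 ± 1.62 RPM (SD, n = 2 each), and the female value of 12.5 ± 2.05 RPM was not called (limma adjusted p = 0.054), although 3 of 14 alternatives called it, among them leaving out E11.5 replicate 2 (limma adjusted p = 0.020). Males also had a rise of Cks1b, a CDK-binding subunit, from 153 ± 25.1 to 267 ± 10.1 RPM, with 137 ± 3.07 RPM in females (limma adjusted p = 0.30, and 0.046 without E11.5 replicate 1). Fbxw7, which targets cyclin E for degradation, rose in both sexes, from 35.6 ± 12.5 RPM to 98.3 ± 4.41 RPM in males and 55.6 ± 2.03 RPM in females (limma adjusted p = 0.00504 in females). The female call was lost without E11.5 replicate 2 (log2 0.32, limma adjusted p = 0.18). Cdk4, the other D cyclin partner, fell in both sexes, from 856 ± 65.6 RPM to 269 ± 5.30 RPM in females (log2 -1.66 ± 0.09, limma adjusted p = 1.08e-14) and 683 ± 21.0 RPM in males (log2 -0.32 ± 0.09, limma adjusted p = 0.00442). The male call was lost without E11.5 replicate 1 (limma adjusted p = 0.058). Skp2, the ubiquitin ligase subunit that targets p27, fell in both, from 69.2 ± 9.72 RPM to 17.2 ± 0.09 RPM in females and 34.1 ± 1.04 RPM in males (limma adjusted p = 8.11e-05 in males). Cul1, the scaffold of that ligase, rose in females from 132 ± 0.40 to 256 ± 20.5 RPM and was 160 ± 22.1 RPM in males (limma adjusted p = 0.078, and 0.033 without male replicate 2). Between the sexes Cdk4 was lower in females by 1.34 ± 0.09 (limma adjusted p = 1.01e-12), while Ccnd1 was higher there.

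Of the 3 other inhibitors Cdkn1a, Cdkn1c and Cdkn2a, 2 were tested. Cdkn1c, the p57 gene, went from 10.9 ± 3.07 RPM at E11.5 to 38.4 ± 0.95 RPM in males and 61.1 ± 9.78 RPM in females (limma adjusted p = 9.86e-07 and 2.89e-09). It was 20.0 ± 0.22 RPM in E10.5 cells, and its fall from there to E11.5 (limma adjusted p = 0.036) was called in 6 of 14 alternatives. It was lost without E10.5 replicate 1, E10.5 replicate 2 or E11.5 replicate 1 (limma adjusted p = 0.18, 0.16 and 0.18). Females were called above males (limma adjusted p = 0.030), in 8 of 14 alternatives. That call was lost with any of the 4 E13.5 libraries left out (limma adjusted p = 0.057 to 0.28). In the floxed cells it was 22.1, 43.4, 20.4 and 23.1 RPM in controls and 53.2, 18.9, 16.1 and 163 RPM in CKO-labelled libraries, highest in the same 3 libraries as the D cyclins above and the somatic sums.

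Downstream of RB1, the 16 S phase genes known as E2F targets were all tested. In males 12 fell and 1 rose from E11.5 to E13.5, beside 15.9% of all genes lower and 22.3% higher. The median log2 change was -0.40 against 0.11 for all genes. Rrm2, a ribonucleotide reductase subunit, fell from 68.6 ± 8.77 to 21.8 ± 7.43 RPM. Cdt1, a replication licensing factor, fell from 222 ± 10.8 to 118 ± 4.05 RPM, and the thymidine kinase Tk1 from 89.1 ± 8.87 to 44.2 ± 13.1 RPM. In females 7 fell and 2 rose, beside 20% and 31.2%, with a median of -0.22 against 0.13. Mcm7, a helicase subunit, fell from 745 ± 62.8 to 560 ± 21.1 RPM, and Uhrf1, a factor in maintenance of DNA methylation, rose from 11.46 ± 8.56 to 32.1 ± 3.95 RPM. Tested directly, 7 of the 16 were higher in females than in males and 0 lower, beside 21.2% and 16.4% of all genes. Tk1, Rrm2 and Cdt1 led (log2 1.11 ± 0.17, 1.02 ± 0.20 and 0.53 ± 0.11). In the CKO-labelled cells 1 of the 16 rose, beside 1.93% of all genes. This was Uhrf1, from 4.48 ± 1.19 to 13.2 ± 5.64 RPM (SD, n = 4 each, limma adjusted p = 0.0215). Its control mean lay under the filter's 5 RPM, so it would not have been tested on the control libraries alone. The call ended without control 3, CKO-labelled 2 or CKO-labelled 4 (limma adjusted p = 0.073, 0.066 and 0.051). Between E10.5 and E11.5 2 of the 16 fell, beside 1.97% of all genes. Pcna fell from 1236 ± 3.82 to 927 ± 66.8 RPM and Mcm4 from 348 ± 3.98 to 259 ± 31.3 RPM. Both calls ended without E10.5 replicate 1 or 2 (limma adjusted p = 0.084 and 0.072 for Pcna, 0.16 and 0.11 for Mcm4), and that of Mcm4 also without E11.5 replicate 2 (limma adjusted p = 0.14).

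Among 18 other pocket proteins, E2F and DP factors and DREAM subunits, 17 were tested. In males 2 rose and 3 fell, beside 22.3% of all genes higher and 15.9% lower. The 3 were Mybl2 (363 ± 22.4 to 213 ± 7.28 RPM), E2f8 (46.7 ± 3.20 to 23.6 ± 5.42 RPM) and E2f7 (27.7 ± 3.92 to 12.1 ± 2.70 RPM). The E2f7 call was lost without male replicate 2 (limma adjusted p = 0.066). In females 5 rose and 4 fell, beside 31.2% and 20%, and Mybl2 reached 152 ± 4.53 RPM. Between the sexes 2 were higher and 4 lower in females, beside 21.2% and 16.4% of all genes. In the CKO-labelled cells 0 of 17 were called, beside 2.43%. Of 12 genes of G2 and M phase 6 rose and 2 fell in males, beside 38.2% of all genes called (22.3% higher and 15.9% lower). In females 5 of them rose and 3 fell, beside 51.2% (31.2% higher and 20% lower). In the CKO-labelled cells 0 of the 12 were called, beside 2.43% of all genes. The kinetochore gene Cenpf rose in both sexes, from 142 ± 2.61 RPM at E11.5 to 336 ± 7.26 RPM in males and 226 ± 15.5 RPM in females (limma adjusted p = 1.82e-05 in females). The mitotic kinase gene Aurkb fell in both, from 142 ± 10.9 RPM to 58.9 ± 6.22 RPM in females and 98.3 ± 2.47 RPM in males (limma adjusted p = 0.00340 in males).

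**Figure D5:**
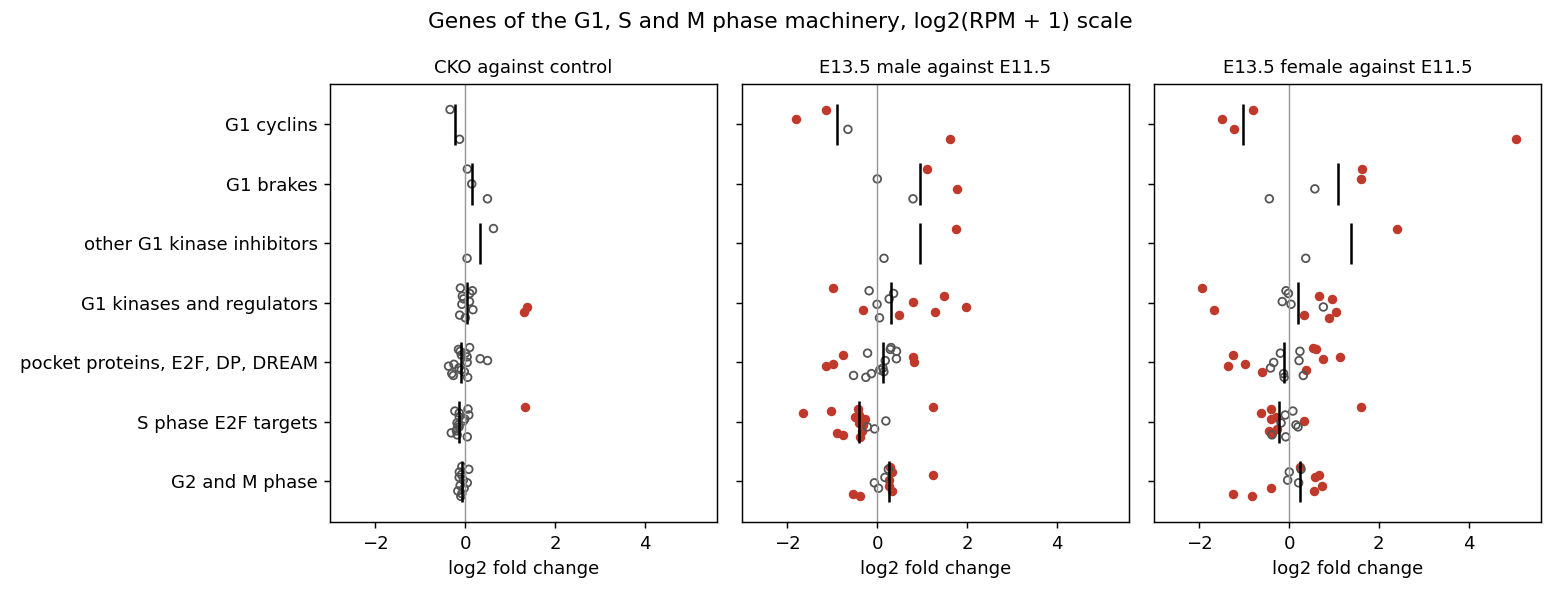
Log2 fold changes (log2(RPM + 1) scale) of genes in 7 lists of G1, S and M phase, for CKO against control and for E13.5 males and females against E11.5, with 1 point per tested gene, filled where the limma adjusted p is under 0.05, and a bar at the list's median. In males 12 of 16 S phase genes are filled left of 0, and in the CKO panel Cdk2, Cdk6 and Uhrf1 are the 3 filled points.

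In a list of male germ cell regulators, among them genes of the Nodal pathway, 11 were tested. From E11.5 to E13.5 5 rose and 0 fell in males, beside 22.3% of all genes higher and 15.9% lower, and 2 rose and 7 fell in females, beside 31.2% and 20%. Tested directly, 1 was higher and 8 were lower in females than in males, beside 21.2% and 16.4% of all genes. Nanos2, an RNA-binding repressor of the male germ line, was 0 RPM in both E11.5 libraries and 39.5 ± 3.42 RPM in males. It was also 0 RPM at E10.5, so this 1 of the 5 male rises was tested only through E13.5 levels. Lefty1, a Nodal pathway inhibitor and target, was 44.9 ± 2.26 RPM at E11.5, 310 ± 8.94 RPM in males and 0.97 ± 0.18 RPM in females. Dmrt1, a transcription factor gene of the testis, rose in both sexes, from 44.1 ± 6.13 RPM to 133 ± 16.6 RPM in males (limma adjusted p = 1.22e-08) and 136 ± 11.7 RPM in females (limma adjusted p = 5.54e-09), with a log2 difference between the sexes of 0.03 ± 0.16 (limma adjusted p = 0.89). Of 7 meiotic entry genes tested, 7 rose in females and 5 in males, beside 31.2% and 22.3% of all genes. All 7 were higher in females than in males, beside 21.2%. Stra8, the gene that marks meiotic entry, was 407 ± 6.64 RPM in females and 1.21 ± 0.77 RPM in males, and Rec8, a meiotic cohesin gene, was 308 ± 13.6 and 14.8 ± 4.92 RPM. Stra8 passed the filter only through the female libraries. Sycp1 averaged 2.72 RPM in the E11.5 libraries and, earlier, 2.06 RPM in the E10.5 ones, so it was tested only through E13.5 levels. Stra8 and Sycp1 are counted among the rises of each sex. In the CKO-labelled cells 1 of 10 tested male germ cell regulators was called, beside 2.43% of all genes. Tdgf1, a Nodal co-receptor gene, rose from 18.6 ± 1.37 to 58.7 ± 10.8 RPM (n = 4 each, log2 1.59 ± 0.15, limma adjusted p = 7.71e-05).

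For the 3 tested cyclins with the widest span between wild-type groups, the genes of the most similar profile were sought over the 8 wild-type libraries by the root mean square difference of centred log2(RPM + 1) values. Ccnd3 had the closest match, Slc25a5 (0.17, Pearson r = 0.99), followed by Cnn2 (0.18) and Pvrl2 (0.18). For Ccnd2 the closest were Smgc (0.33), Pomgnt1 (0.34) and Cmtm8 (0.34). For Ccnd1 the closest were Fut4 (0.69), Reep5 (0.69) and Slc6a8 (0.72). Fut4 was 1.93 RPM in E10.5 cells, 0 at E11.5, 4.41 RPM in males and 31.1 RPM in females. The points share libraries and depth, so these values describe likeness only.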

How the data were processed

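Per the labels' protocols, RNA of sorted cells was made into cDNA, amplified with 11 PCR cycles and sequenced from the 3′ end. Per the submitters' processing notes, the tools were cutadapt 1.3, TopHat 1.4.1 and Cufflinks 2.2.0, with the build mm10. The authors deposited RPM values, which scale each library to 1e6 reads assigned to genes, in 2 tables of 26219 genes, which were tested separately because they were normalized separately. The 92 ERCC spike-in rows of the wild-type table were left out. Positive values corresponded to whole reads, within 0.05 reads, for 99.7% to 99.8% of genes, and 36 to 49 genes per library were fractional, so the values were treated as RPM.

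Limma 3.58.1 in R 4.3.3 (lmFit, eBayes with trend) was run on log2(RPM + 1), with Benjamini-Hochberg adjustment over all genes at 5 RPM or more in 4 floxed or 2 wild-type libraries. All 8 wild-type libraries entered 1 fit. The method was tested on simulated data. Alternatives were pseudocounts of 0.1 and 10, no filter and a filter at 20 RPM, median-ratio and quantile scaling, no trend, a replicate block, each library left out, 2 groups alone, and the floxed fit without control 1 and CKO-labelled 4. Limma voom was added after the data were seen.

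All 10 genes are named, with up to 3 called genes of the smallest p per other list and comparison, and the 3 most similar genes for up to 3 members. Values of such genes in the other sex, and those of Col3a1, were added after their values were seen. The members and lists were chosen with earlier results of these data known. Lists also covered endothelial, erythroid and macrophage markers, whose summed levels per library were 58.5 to 153, 0.707 to 224 and 0.704 to 16.3 RPM. Gene positions and promoters came from RefSeq on GRCm38.p6. Python 3.11.15, pandas 2.3.3 and matplotlib 3.10.9 were used.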

Additional observations from a re-analysis of the deposited data

Results flagged for a closer look

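The change from E11.5 to E13.5 differed between females and males for 4 of the 8 genes tested, beside 37.6% of all genes, by limma's test of the difference itself, which is the same as that of females against males at E13.5. For Ccnd1 the female change exceeded the male change by 3.44 on the log2 scale (limma adjusted p = 8.50e-07). For Cdkn2d it exceeded it by 1.60 (limma adjusted p = 5.83e-06) and for Rb1 by 0.51 (limma adjusted p = 0.043). For Cdkn1b, which would not have passed the filter without the male libraries, the difference was -1.24 (limma adjusted p = 0.046). The Ccnd1 and Cdkn2d calls were kept in all 14 alternatives, the Rb1 call in 6 of 14 and the Cdkn1b call in 7 of 13. In each of the 4 genes the 2 female libraries lay on 1 side of the 2 male libraries. These genes were picked as called, so that adds no support, and the share of all genes so separated was not counted. Ccnd3 and Ccne1, which were not called, were separated too. The nearest values of Cdkn1b were 4.18 RPM in females and 5.01 RPM in males. No library stood apart from the others of its group in any of the 20 sets of 4 floxed libraries looked at, by the gap to its neighbour over the group's range.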

How the results depend on the processing

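Called counts of the 10 genes were within 1.5 times the reported count in all alternatives for CKO-labelled against control cells and for females against E11.5. With libraries left out in turn they ranged from 0 to 0 and from 5 to 6 in these comparisons, and from 3 to 5 in males against E11.5, lowest without male replicate 2. Between the sexes they ranged from 2 to 3, lowest without male replicate 2 or female replicate 2. Between E10.5 and E11.5 the 1 call became 0 with pseudocounts of 0.1 and 10, no filter, no trend, voom and the 2 groups alone, and 0 to 1 with libraries left out. In males 3 genes were called with no filter. Between the sexes 2 were called with a pseudocount of 0.1, no filter or no trend.

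Over all genes, CKO-labelled against control gave 139 calls with a filter at 20 RPM and 137 to 204 with libraries left out, lowest without CKO-labelled 2. E11.5 against E10.5 gave 80 with no filter, 27 with no trend, 79 with the 2 groups alone and 105 to 486 with libraries left out (105 without E10.5 replicate 1 and 167 without E10.5 replicate 2). Libraries left out gave 2853 to 3739 calls in males, 4033 to 4957 in females and 2708 to 3015 between the sexes.

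Of 524 alternative values of the 10 genes 461 kept direction and side of the threshold, 41 lost the call, 4 gained it and 18 changed sign, and none of the 18 was called in the main fit or the alternative. In CKO-labelled cells Cdkn2d was -0.085 without control 1 and CKO-labelled 4, and with libraries left out it ranged from -0.087 to 0.28 and Rb1 from -0.15 to 0.17. From E10.5 to E11.5 Ccne1 was -4.47e-05 with median-ratio scaling and Rb1 -0.029 with voom. With libraries left out Ccne1 ranged there from -0.13 to 0.20, Rb1 from -0.10 to 0.22 and Cdkn2b from -0.37 to 1.33. In males Cdkn2d was -0.075 with median-ratio scaling, -0.083 with quantile scaling and -0.013 with voom, and ranged from -0.37 to 0.38 with libraries left out, while Ccnd2 ranged from -1.31 to 0.010. In females Cdkn1b ranged from -1.19 to 0.31. Among the other genes, Cks1b in females ranged from -0.32 to 0.015 with libraries left out. Dmrt1 between the sexes was -4.07e-04 with median-ratio scaling and ranged from -0.092 to 0.16 with libraries left out. The cause was not tested. A pseudocount of 10 gave smaller changes for low genes by its construction, 2.77 for Ccnd1 in females against E11.5.

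With a replicate block the counts over all genes were 232 higher and 82 lower (CKO-labelled against control), 301 and 258 (E11.5 against E10.5), 2435 and 1725 (males), 3408 and 2155 (females), and 2324 and 1775 (between the sexes), and it changed no call of the 10 genes. Deviations of same-numbered libraries correlated at 0.020 to 0.25 in the floxed set and -0.031 to 0.033 in the wild-type set. Not every pair of either set was over 0.1, and the labels name nothing that same-numbered libraries share, so the numbers were not taken as pairs. As a hint only, 6 of 8 floxed libraries correlated best with their own number. The same count, 6 of 8, was found in the wild-type set, where no same-numbered pair exceeded 0.033. Where a left-out library leaves 1 in a group, that library is assumed to vary like the others. The planned count test was not run, since the values are not all whole reads. Depth limits the low genes, such as Ccnd1 at E11.5 and Cdkn2c.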
